A study of Mus musculus with 32 samples.

Results

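*Cs*, *Idh3a*, *Idh3b*, *Idh3g*, *Ogdh*, *Dlst*, *Sucla2*, *Suclg1* and *Mdh2* encode subunits of 5 enzymes that carry out steps of the tricarboxylic acid (TCA) cycle. The 9 genes were chosen by name, out of 24646 genes measured in each of 4 tissues, and all 9 were found and tested in every tissue with no filter on low values. The tissues were liver, epididymal white fat (eWAT), inguinal white fat (iWAT) and brown fat (BAT) of male mice that lacked *Gpr146*, a G protein-coupled receptor, in the whole body (knockout, KO) and of wild-type (WT) mice. Both genotypes came from crosses of heterozygous parents, were 20 weeks old, had been given a high-fat diet (HFD) for 3 months and had fasted overnight, so neither a lean diet nor the fed state is represented. There were 4 mice per genotype and 1 Affymetrix Mouse Gene 2.1 ST array per mouse and tissue, 32 arrays in all, and the labels give no strain. The question was whether loss of the receptor was accompanied by a different expression of this part of oxidative metabolism in the liver and in each fat depot.

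The TCA cycle runs in the mitochondrial matrix, where it oxidizes acetyl-CoA from glucose, fatty acids and amino acids and hands the electrons to the respiratory chain. Citrate synthase joins acetyl-CoA to oxaloacetate, isocitrate and oxoglutarate dehydrogenase release carbon dioxide and make NADH, succinyl-CoA ligase makes a nucleoside triphosphate, and malate dehydrogenase closes the circle. Brown fat is packed with mitochondria and burns fuel for heat, white fat holds few and also draws citrate off for fatty acid synthesis, and the liver uses the cycle's intermediates for glucose and amino acid metabolism.

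Values are log2 expression values as deposited, in which a difference of 1 is a doubling. The tissues fitted their labels: *Alb*, the liver's albumin, lay at 11.85 to 11.96 in liver, *Adipoq*, the adipocyte hormone adiponectin, at 7.68 to 8.76 in the 3 fat depots, and *Ucp1*, the uncoupling protein of brown fat, at 11.03 to 11.59 in BAT. *Gpr146* itself had lower values in all 4 knockout than in all 4 wild-type arrays of every tissue, with log2 fold changes of -1.77 in liver, -1.53 in eWAT, -1.55 in iWAT and -1.16 in BAT (limma adjusted p = 6.52e-06, 0.00823, 0.221 and 0.0725). Where its probes lie relative to the deleted part is not given in the sources used here. The titles of the knockout liver samples name both genotypes, while their genotype field gives KO, which was used. Some fat arrays stood apart in markers of other cell types: B and T lymphocyte genes averaged 7.62 and 7.75 in iWAT wild-type mice 1 and 2 and 7.48 and 5.39 in knockout mice 2 and 4, against 3.36 to 3.55 in the other 4. Skeletal muscle genes averaged 6.49, 7.42 and 7.70 in BAT wild-type mice 2 and 3 and knockout mouse 2, against 3.16 to 3.95 in the other 5.

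Over the arrays of all tissues pooled, the 9 genes varied together. With each gene centred on the mean of its tissue and genotype over the 32 arrays, the 36 pairs of genes had correlations of 0.26 to 0.91 with a median of 0.68, and each gene correlated with the mean of the other 8 at 0.51 (*Idh3a*) to 0.93 (*Cs*). Arrays of 1 mouse and the scale of each array are shared by all genes, so these values are a description with no test. Tissues with a wide spread weigh most in them. The mean of the 9 genes had SDs (wild type, knockout) of 0.11 and 0.26 in eWAT and 0.065 and 0.22 in iWAT. In BAT they were 0.063 and 0.079, and in liver 0.020 and 0.033. Correlations within a single tissue were not computed. The 3 genes that followed the others most closely over the pooled arrays were *Cs* at 0.93, *Dlst* at 0.92 and *Mdh2* at 0.90. Their promoters are shown as the regulatory sequences of these genes. Each is a 300-base window around the RefSeq transcription start (GRCm38.p6), 5′ to 3′ on the gene's plus strand, at chr10:128337477-128337776 for *Cs*, chr12:85110583-85110882 for *Dlst* and chr5:135778399-135778698 for *Mdh2*, and capitals mark a GC box (GGGCGG) or an ETS motif (CGGAAGT) on either strand.
Cs: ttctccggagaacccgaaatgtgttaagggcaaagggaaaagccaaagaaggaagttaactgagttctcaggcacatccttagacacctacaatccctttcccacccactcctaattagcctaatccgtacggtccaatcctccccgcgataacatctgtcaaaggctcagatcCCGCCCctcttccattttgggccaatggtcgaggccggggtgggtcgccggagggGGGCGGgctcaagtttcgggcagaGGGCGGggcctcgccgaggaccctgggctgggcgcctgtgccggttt
Dlst: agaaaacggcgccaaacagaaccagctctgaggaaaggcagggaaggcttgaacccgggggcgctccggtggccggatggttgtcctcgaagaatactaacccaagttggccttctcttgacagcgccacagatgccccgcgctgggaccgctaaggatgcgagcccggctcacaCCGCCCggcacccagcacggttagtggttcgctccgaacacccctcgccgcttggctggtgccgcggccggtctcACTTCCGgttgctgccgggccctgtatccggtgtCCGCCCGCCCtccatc
Mdh2: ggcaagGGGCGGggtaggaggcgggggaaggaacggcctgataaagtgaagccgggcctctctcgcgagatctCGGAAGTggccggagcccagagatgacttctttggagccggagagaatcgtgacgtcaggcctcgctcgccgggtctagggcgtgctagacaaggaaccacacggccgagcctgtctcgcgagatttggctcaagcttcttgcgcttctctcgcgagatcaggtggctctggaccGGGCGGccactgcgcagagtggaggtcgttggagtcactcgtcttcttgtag
The *Cs* window held 3 GC boxes, *Dlst* 3 (of which 2 overlapped) and 1 ETS motif, and *Mdh2* 2 GC boxes and 1 ETS motif. Of the 8 genes with a window, 5 had a GC box in at least 1 window, against 38.2% of all genes with one, and 2 had an ETS motif, against 7.2%. The estrogen-related receptor motif AAGGTCA was in 1 of the 8, *Ogdh* (5.38% of all genes), and the motif of nuclear respiratory factor NRF1 in 1, *Sucla2* (5.19%). These are matches of letters in short windows, *Ogdh* has 6 windows and so more room for a match, and *Idh3a* was not in the table used.

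In wild-type mice all 9 genes had their highest values in BAT, between 9.67 and 11.13 over genes and arrays, and in every gene the lowest BAT array lay above the highest array of the other 3 tissues. Each tissue was normalized on its own, so the order is a description. Among the other tissues liver was lowest for *Cs*, at 7.24 ± 0.10 (SD, n = 4) against 8.20 ± 0.19 in eWAT and 8.19 ± 0.04 in iWAT, and for *Idh3a* and *Idh3g*. It was the highest of the 3 for *Ogdh*, *Dlst*, *Sucla2* and *Suclg1*, most of all for *Suclg1*, the alpha subunit common to both succinyl-CoA ligases, at 8.40 ± 0.06 against 6.11 ± 0.08 in eWAT and 6.48 ± 0.19 in iWAT. The white depots lay close together: their wild-type arrays overlapped in all genes but *Idh3g*, *Dlst* and *Suclg1*. Liver overlapped iWAT in *Idh3b* and both white depots in *Mdh2*. Ranked within its own array, which needs no common scale, *Suclg1* stood at percentile 83.3 in eWAT, 86.6 in iWAT, 97.8 in liver and 99.5 in BAT.

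No member passed an adjusted p of 0.05 between the genotypes in any tissue. The signs of the 9 fold changes differed by tissue as follows. In liver, where 0.665% of all genes passed the threshold, 4 members had a log2 fold change above 0, as did 53.1% of all genes, and 5 below, with a median of -0.015 and a range of -0.11 to 0.09. In eWAT, where 15.2% of all genes passed, 8 of 9 were above 0 with a median of 0.20, while 56.5% of all genes were above 0 with a median of 0.031. In iWAT, where 0% of all genes passed the threshold but 15.4% had an unadjusted p under 0.05, all 9 were above 0 with a median of 0.32, against 53.3% of all genes and a median of 0.017. In BAT, where 0.0284% of all genes passed, 3 of 9 were above 0, against 50.8% of all genes, and the median was -0.12, against 0.0032 over all genes. The smallest adjusted p among the members was 0.577 in liver, 0.122 in eWAT, 0.221 in iWAT and 0.378 in BAT. At an unadjusted p under 0.05 there were 0 of 9 members in liver (13.3% of all genes), 1 in eWAT (*Sucla2*, 29.8% of all genes), 5 in iWAT (*Cs*, *Idh3g*, *Ogdh*, *Sucla2* and *Mdh2*) and 2 in BAT (*Cs* and *Dlst*, 12.7% of all genes). Knockout values all above the wild-type values were found for 0 of 9 members in liver (3.62% of all genes), 0 in eWAT (8.63%) and 3 in iWAT (*Idh3g*, *Ogdh* and *Mdh2*, 4.29%). In whole tissue, fewer cells of a type and less RNA per cell cannot be told apart.

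**Figure D1:**
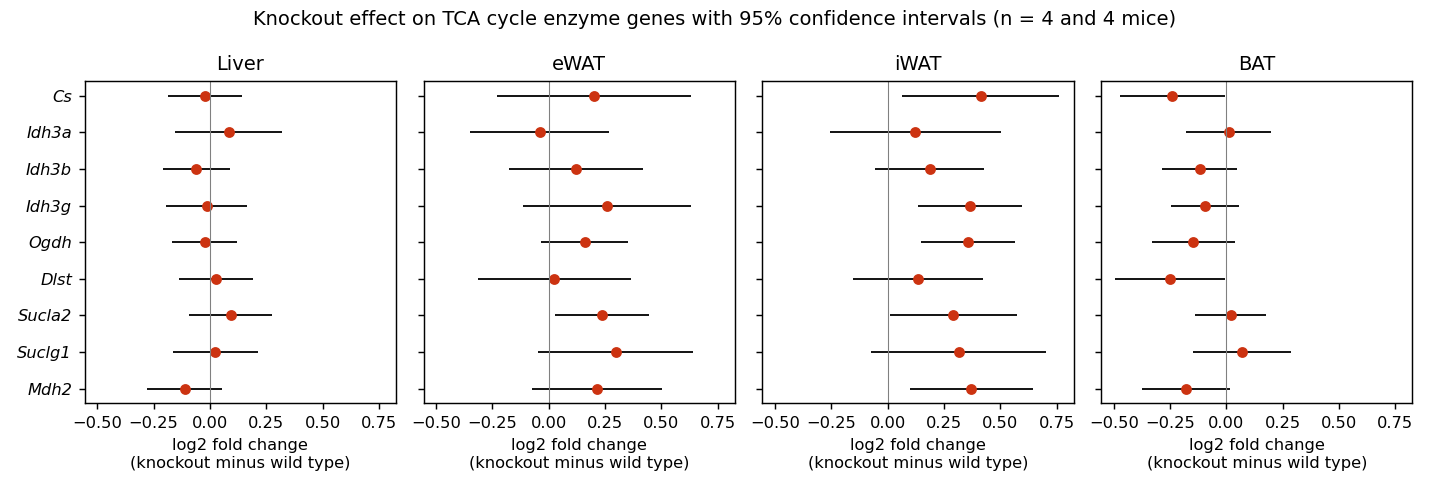
Log2 fold change (horizontal axis, knockout minus wild type) of each TCA cycle enzyme gene (vertical axis) in the 4 tissues, with bars for the 95% confidence interval from limma, 4 mice per genotype. The points lie around 0 in liver, above 0 for 8 of 9 genes in eWAT and for all 9 in iWAT, and below 0 for 6 of 9 in BAT.

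*Cs* encodes citrate synthase, which catalyses the entry step and whose enzyme activity is widely used as a measure of mitochondrial content. The arrays measured *Cs* RNA only. Its iWAT values were 8.23, 8.13, 8.17 and 8.21 in the wild-type mice and 8.56, 8.15, 8.83 and 8.86 in the knockout mice. Knockout mice 1, 3 and 4 exceeded the wild-type range and knockout mouse 2 was within it, which gave a log2 fold change of 0.41 (95% interval 0.065 to 0.76, limma adjusted p = 0.275). In BAT the wild-type mice had 10.65, 10.65, 10.41 and 10.49 and the knockout mice 10.42, 10.20, 10.13 and 10.48. The BAT groups overlapped, with a log2 fold change of -0.24 (-0.47 to -0.0075, adjusted p = 0.378). The eWAT knockout mice were widely spread, at 8.58, 8.31, 7.87 and 8.84 against 8.31, 8.33, 8.22 and 7.93 in the wild type, and the log2 fold change of 0.20 had an interval from -0.23 to 0.63. Liver values ran from 7.10 to 7.34 over both genotypes, with a log2 fold change of -0.020.

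Isocitrate dehydrogenase 3, which makes NADH and is a control point of the cycle, is built from the catalytic subunit *Idh3a* and from *Idh3b* and *Idh3g*. *Idh3g* in iWAT had 9.47, 9.32, 9.43 and 9.42 in the wild-type mice and 9.75, 9.59, 9.78 and 9.97 in the knockout mice. The lowest knockout value exceeded the highest wild-type value, as in 4.29% of all genes in this depot, with a log2 fold change of 0.37 (0.14 to 0.60, limma adjusted p = 0.224). The catalytic *Idh3a* had the smallest iWAT value of the 9, 0.12 (-0.26 to 0.50), its groups overlapping between 7.43 and 8.06. *Idh3b* lay between them with 0.19 (-0.057 to 0.43). In BAT the order of the genotypes in *Idh3g* was the opposite: 11.13, 11.12, 11.10 and 11.10 in the wild type against 11.01, 11.02, 11.03 and 11.02 in the knockout, with no overlap in a narrow range (-0.10, -0.25 to 0.056, adjusted p = 0.619), as in the 3.92% of all BAT genes whose knockout values were all lower. BAT *Idh3b* had a value of -0.12 with 3 of 4 knockout mice below all wild-type mice, and *Idh3a* 0.010. In eWAT the values were -0.041 for *Idh3a*, the only member below 0 in that depot, 0.12 for *Idh3b* and 0.26 for *Idh3g*, each with an interval that held 0.

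*Ogdh* and *Dlst* encode the decarboxylating and the succinyl-transferring component of the oxoglutarate dehydrogenase complex, whose last component is shared with the pyruvate dehydrogenase complex. *Ogdh* had the smallest unadjusted p of any member in iWAT: its values were 8.19, 8.22, 8.35 and 8.24 in the wild type and 8.55, 8.48, 8.74 and 8.65 in the knockout. The groups did not overlap, and the log2 fold change was 0.36 (0.15 to 0.57, limma adjusted p = 0.221), a fold of 1.28. *Dlst* in the same depot overlapped, with 7.58, 7.55, 7.65 and 7.77 against 7.73, 7.45, 7.92 and 7.98 and a log2 fold change of 0.14 (-0.15 to 0.42). Knockout mouse 2 was under the wild-type range in *Dlst* and over it in *Ogdh*. In BAT both had values below 0. *Dlst* had 10.36, 10.47, 10.02 and 10.22 in the wild type and 10.09, 9.94, 9.90 and 10.15 in the knockout, a log2 fold change of -0.25 (-0.49 to -0.0051, adjusted p = 0.383), and *Ogdh* -0.15 (-0.33 to 0.040) with 3 of 4 knockout mice below the wild type. In eWAT *Ogdh* had 0.16 (-0.035 to 0.35) and *Dlst* 0.025 (-0.31 to 0.36). *Dlst* in eWAT ranged from 6.93 to 7.70 over the knockout mice and only from 7.22 to 7.43 over the wild type.

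Succinyl-CoA ligase makes ATP or GTP, depending on which beta subunit joins the alpha subunit *Suclg1*, and *Sucla2* is the beta subunit for ATP. *Sucla2* had the smallest unadjusted p and *Suclg1* the largest fold change of the 9 in eWAT. *Sucla2* had 6.68, 6.64, 6.73 and 6.48 in the wild type and 6.96, 6.85, 6.68 and 6.97 in the knockout, where 3 of 4 knockout values exceeded the wild-type range. Its log2 fold change was 0.24 (0.028 to 0.44, limma unadjusted p = 0.0303, adjusted p = 0.122), a fold of 1.18. *Suclg1* had 6.15, 6.09, 6.19 and 6.01 against 6.63, 6.43, 5.91 and 6.65, with knockout mouse 3 below all wild-type mice and the other 3 above them (0.30, -0.047 to 0.64, adjusted p = 0.227). Without knockout mouse 3 *Suclg1* passed the threshold, at 0.46 (limma adjusted p = 0.0199), and without knockout mouse 4 it was 0.22. Over the mice left out in turn its limma adjusted p ran from 0.0199 to 0.421. In iWAT *Sucla2* had 0.29 (0.0096 to 0.57, adjusted p = 0.313) and *Suclg1* 0.32 (-0.073 to 0.70, adjusted p = 0.394), each with 3 of 4 knockout mice above the wild type. The BAT values were 0.019 and 0.068, and the liver values 0.09 and 0.024.

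*Mdh2*, mitochondrial malate dehydrogenase, regenerates oxaloacetate. Its iWAT values were 8.48, 8.44, 8.57 and 8.59 in the wild type and 8.86, 8.59, 9.004 and 9.10 in the knockout. The groups touched without overlapping, knockout mouse 2 lying just above the highest wild-type mouse, and the log2 fold change was 0.37 (0.098 to 0.64, limma adjusted p = 0.246). BAT had 10.38, 10.49, 10.30 and 10.26 against 10.20, 10.23, 10.03 and 10.26, with 3 of 4 knockout mice below the wild type (-0.18, -0.37 to 0.017, adjusted p = 0.445). In eWAT the log2 fold change was 0.21 (-0.072 to 0.50, adjusted p = 0.295) with 3 of 4 knockout mice above the wild type. Liver had the value farthest from 0 of the 9 there, -0.11 (-0.28 to 0.055, adjusted p = 0.577), from 8.46, 8.54, 8.58 and 8.71 in the wild type and 8.42, 8.52, 8.49 and 8.41 in the knockout.

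**Figure D2:**
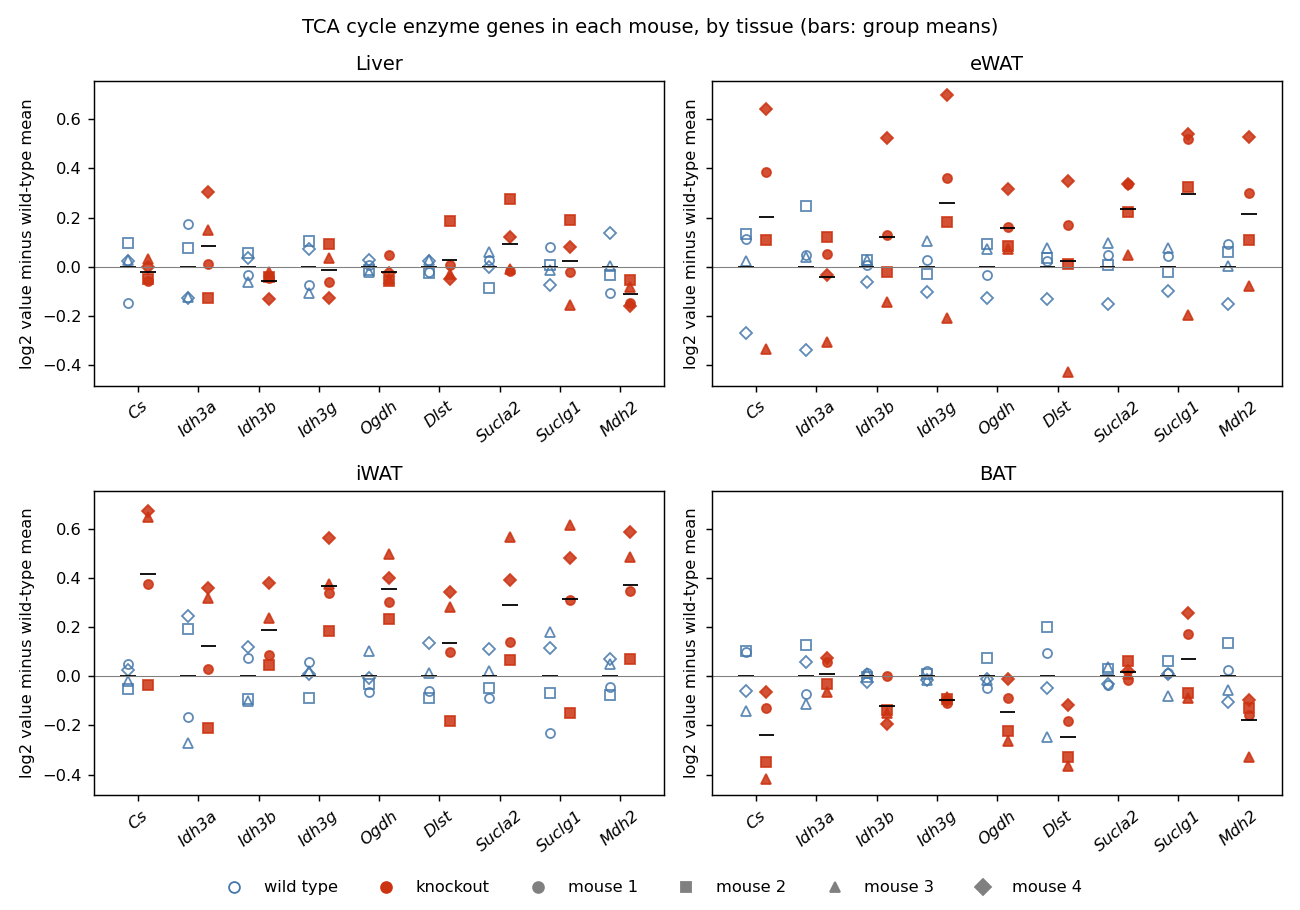
Log2 value of each TCA cycle enzyme gene in each mouse minus the wild-type mean of that gene and tissue (vertical axis), open symbols for wild type, filled for knockout, shapes for the mouse number and bars for group means. In eWAT knockout mouse 3 is the lowest knockout mouse and wild-type mouse 4 the lowest wild-type mouse in all 9 genes, in iWAT knockout mouse 2 is the lowest knockout mouse in all 9, and in BAT the *Idh3g* groups do not overlap.

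Within a white depot the same mice stood at the ends of the range in most genes. In eWAT wild-type mouse 4 was the lowest wild-type mouse in 9 of 9 members, knockout mouse 3 the lowest knockout mouse in 9 of 9 and knockout mouse 4 the highest in 8 of 9. The mean of the 9 genes, taken relative to the wild-type mean, was 0.16 ± 0.26 (SD, n = 4) in the knockout and ran from -0.17 to 0.43, with an SD of 0.11 in the wild type. Knockout mouse 3 also had the highest lymphocyte marker mean of that depot, 4.03 against 2.92 to 3.16 in the other 7. In iWAT knockout mouse 2 was the lowest knockout mouse in 9 of 9, and the mean over the genes was 0.28 ± 0.22 with a range of 0.0027 to 0.46 (wild-type SD 0.065). That mouse had the highest lymphocyte (7.48) and macrophage (6.70, against 5.41 to 5.93) marker means and the lowest adipocyte marker mean (9.70, against 9.96 to 10.09) of the knockout iWAT arrays. Knockout mouse 4, with the next highest lymphocyte mean of these (5.39), was the highest knockout mouse in 6 of 9 members. In the wild type, mice 1 and 2, with lymphocyte means of 7.62 and 7.75, had means over the 9 genes of -0.052 and -0.039. Wild-type mice 3 and 4 had -0.00049 and 0.091. BAT was tighter, at -0.10 ± 0.079 (wild-type SD 0.063), and liver tightest, with SDs of 0.033 and 0.020.

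**Figure D3:**
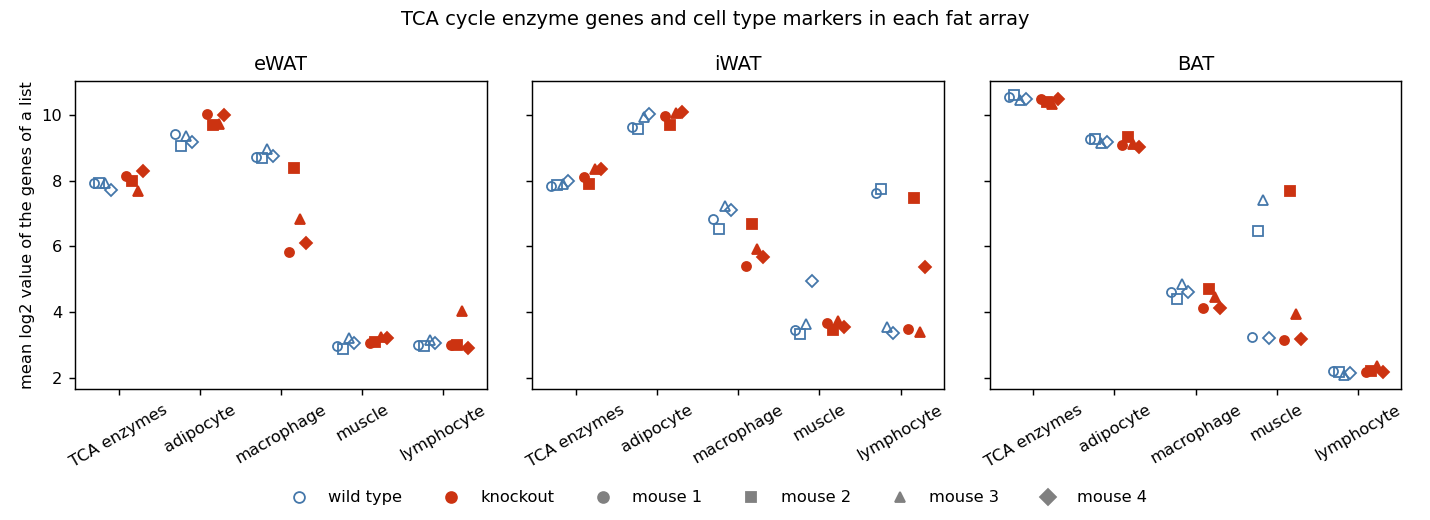
Mean log2 value (vertical axis) of the TCA cycle enzyme genes and of 4 lists of cell type markers (horizontal axis) in each array of the 3 fat depots, open symbols for wild type, filled for knockout and shapes for the mouse number. In eWAT the macrophage means are 8.70 to 8.96 in the wild type and 5.84 to 8.40 in the knockout, in iWAT 4 arrays have lymphocyte means above 5, and in BAT 3 arrays have muscle means above 6.

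Among the fat depots, listed cell type markers passed the threshold between the genotypes in eWAT only. In liver 3 of 5 endothelium, 2 of 10 adipocyte and 1 of 6 progenitor and stroma markers were lower past it, against 0.503% of all genes. In eWAT 9 of 10 adipocyte markers were higher past the threshold in the knockout and 1, the hormone gene *Lep*, was lower, against 4.57% and 10.7% of all genes in these directions. Of the macrophage markers 9 of 10 were lower past the threshold, and the list's mean was 8.70 to 8.96 in the wild type and 5.84, 8.40, 6.83 and 6.09 in the knockout, so that knockout mouse 2 stood near the wild type. Of 6 progenitor and stroma markers 5 were lower. In iWAT 0 of the 10 adipocyte and 0 of the 10 macrophage markers passed the threshold, with macrophage means of 6.54 to 7.24 in the wild type and 5.41 to 6.70 in the knockout. Taken relative to the adipocyte marker mean of the same array, the mean of the 9 TCA cycle genes was -1.38 ± 0.18 in the wild type and -1.82 ± 0.16 in the knockout in eWAT, a difference opposite in sign to that of the genes themselves. In iWAT the same quantity was -1.89 ± 0.17 and -1.77 ± 0.060. The mean of 8 brown adipocyte markers had the same direction as the 9 genes in each depot. Of the 8, however, 0 passed the threshold in any of them. At a limma unadjusted p under 0.05 there were 3 in iWAT, all higher, and 3 in BAT, all lower. In eWAT there was 1, which was lower, against the direction of the mean. In iWAT this mean was 3.57, 3.10, 3.70 and 3.30 in the wild type and 4.07, 3.51, 4.23 and 3.94 in the knockout, with knockout mouse 2 the lowest of the knockout mice, as in the 9 genes. Of the 8 markers 7 had iWAT log2 fold changes above 0, up to 2.51 for *Cox8b*, a cytochrome c oxidase subunit of brown fat and muscle, while *Ucp1* had -0.56. In BAT the mean was 7.84 to 8.03 in the wild type and 7.41 to 7.74 in the knockout, with no overlap, and 5 of 8 markers were below 0. In eWAT the ranges overlapped, 2.27 to 2.52 in the wild type and 2.41 to 2.66 in the knockout, and 5 of 8 markers were above 0. The part of these cell types in the values of the members was not tested. With the 4 iWAT arrays above a lymphocyte marker mean of 5 left out, which leaves 2 mice per genotype, the median over the 9 genes was 0.31, and with the lymphocyte mean as a covariate it was 0.26. In BAT, with the 3 arrays above a muscle marker mean of 6 left out, the median was -0.10.

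Whether the knockout effect differed between tissues was tested on the difference between tissues within each mouse number, in 6 pairs of tissues. No member passed the threshold in any pair. Between eWAT and BAT, where 6.93% of all genes passed, 8 of 9 differences were above 0, and the nearest to the threshold were *Mdh2* (0.39, limma adjusted p = 0.092), *Cs* (0.44, adjusted p = 0.12) and *Ogdh* (0.31, adjusted p = 0.125). Between iWAT and BAT all 9 were above 0, from 0.11 for *Idh3a* to 0.65 for *Cs*, with adjusted p of 0.299 or more while 0% of all genes passed. Between iWAT and liver, where 0.00406% of all genes passed, all 9 were again above 0, and between eWAT and liver (8.37%) 7 of 9. Between BAT and liver (0.0893%) 8 of 9 were below 0, and between eWAT and iWAT (0%) all 9, the iWAT effect being the larger, with a median difference of -0.11 and a smallest adjusted p of 0.633. Pairs that have a tissue in common share its arrays and are not independent of each other.

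Of 8 further enzyme genes of the cycle 2 rose past the threshold in eWAT, where 4.57% of all genes did: *Sdha*, the flavoprotein subunit of succinate dehydrogenase, which also feeds the respiratory chain, and *Idh2*, the NADP-dependent mitochondrial isocitrate dehydrogenase. *Sdha* had 8.56, 8.45, 8.54 and 8.28 in the wild type and 9.22, 8.82, 9.04 and 9.41 in the knockout, with no overlap and a log2 fold change of 0.67 (0.38 to 0.95, limma adjusted p = 0.0125). *Idh2* had 7.44, 7.18, 7.43 and 7.02 against 7.93, 7.69, 7.55 and 7.89, also with no overlap (0.50, 0.22 to 0.78, adjusted p = 0.0274). The other 6 had eWAT values of 0.51 for *Fh1* (fumarase), 0.42 for *Sdhb*, 0.42 for *Suclg2* (the beta subunit for GTP), 0.31 for *Dld* (the shared last component), -0.0048 for *Sdhd* and -0.18 for *Sdhc*, and the median over these 8 was 0.42, against 0.20 over the members (the difference between the lists was not tested). In iWAT 0 of 8 passed, 2 had groups that did not overlap (*Sdhb* 0.67 and *Sdha* 0.57) and all were above 0, *Idh2* at 0.10 and *Sdhc* at 0.031 least. None passed in liver or BAT, where the medians were -0.012 and 0.031. The knockout effect on *Sdha* and *Idh2* was larger in eWAT than in BAT (differences 0.70 and 0.58, adjusted p = 0.0140 and 0.0457) and than in liver (0.63 and 0.56, adjusted p = 0.0183 and 0.0475). In all, 2 of the 8 passed between eWAT and BAT (6.93% of all genes) and 3 between eWAT and liver (8.37%). The *Idh2* call was lost (adjusted p 0.072 to 0.083) when wild-type mouse 2 or 4 or knockout mouse 1 or 4 was left out, while the *Sdha* call held with each mouse left out in turn.

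Genes that feed pyruvate into the cycle did not pass the threshold in any tissue. All 6, the carrier genes *Mpc1* and *Mpc2* and the pyruvate dehydrogenase complex genes *Pdha1*, *Pdhb*, *Dlat* and *Pdhx*, were above 0 in eWAT (0.21 to 0.36) and in iWAT (0.17 to 0.45), and 5 of 6 were below 0 in liver and above 0 in BAT. The enzymes that switch this complex off and on by phosphorylation moved in both directions in eWAT. *Pdk2*, a kinase, rose by 0.73 (adjusted p = 0.0297) and *Pdk4*, the kinase induced by fasting, fell by 1.17 on the log2 scale (adjusted p = 0.0316), from 8.73, 9.03, 9.29 and 9.31 to 7.21, 8.89, 7.86 and 7.71. The *Pdk4* groups overlapped through knockout mouse 2, the mouse whose macrophage marker mean was near the wild type. Of the 7 genes in this group, *Pdk1* and the phosphatase *Pdp2* also rose (0.31 and 0.35), named here after their values were seen. In all, 3 of the 7 rose past the threshold and 1 fell, against 4.57% and 10.7% of all genes. None of the 7 passed in the other tissues. With 1 mouse left out, the adjusted p of *Pdk2* reached 0.0914 and that of *Pdp2* 0.0719 (call lost without wild-type mouse 1, 2, 3 or 4 or knockout mouse 1 or 4), that of *Pdk4* 0.0908 (wild-type 2, 3 or 4 or knockout 1, 3 or 4) and that of *Pdk1* 0.0747 (wild-type 2, 3 or 4 or knockout 1).

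Genes that refill or drain the cycle moved in both directions in eWAT. Of 14 there 2 rose past the threshold, against 4.57% of all genes. *Pcx*, pyruvate carboxylase, which makes oxaloacetate, rose by 1.27 (limma adjusted p = 0.0103). *Pck1*, the cytosolic phosphoenolpyruvate carboxykinase of glyceroneogenesis, rose by 0.94 (adjusted p = 0.0117). *Pcx* had 7.72, 7.57, 7.83 and 7.14 in the wild type and 8.90, 8.39, 8.65 and 9.41 in the knockout, with no overlap. Another 3 fell, against 10.7% of all genes: *Got1*, the cytosolic aspartate aminotransferase, by 1.68 (adjusted p = 0.0109), the oxoglutarate carrier *Slc25a11* by 0.66 and *Got2*, the mitochondrial aminotransferase, by 0.31. The calls of *Pcx*, *Pck1* and *Got1* held with each mouse left out, that of *Slc25a11* was lost without any 1 wild-type mouse or knockout mouse 1 (adjusted p up to 0.0731) and that of *Got2* without any 1 wild-type mouse or knockout mouse 1 or 4 (up to 0.0845). In liver, where 0.503% of all genes fell, *Me1*, the cytosolic malic enzyme that makes NADPH for fatty acid synthesis, was the 1 gene of the 14 that passed, from 7.28, 7.63, 7.39 and 7.52 in the wild type to 6.52, 6.43, 6.67 and 6.89 in the knockout (-0.83, adjusted p = 0.0109). No gene passed in iWAT or BAT, where *Acly*, ATP citrate lyase, had a BAT value of 1.46 (adjusted p = 0.13). The knockout effect on *Got1* differed between eWAT and liver by -2.71 (adjusted p = 0.00212), the liver value being 1.04.

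**Figure D4:**
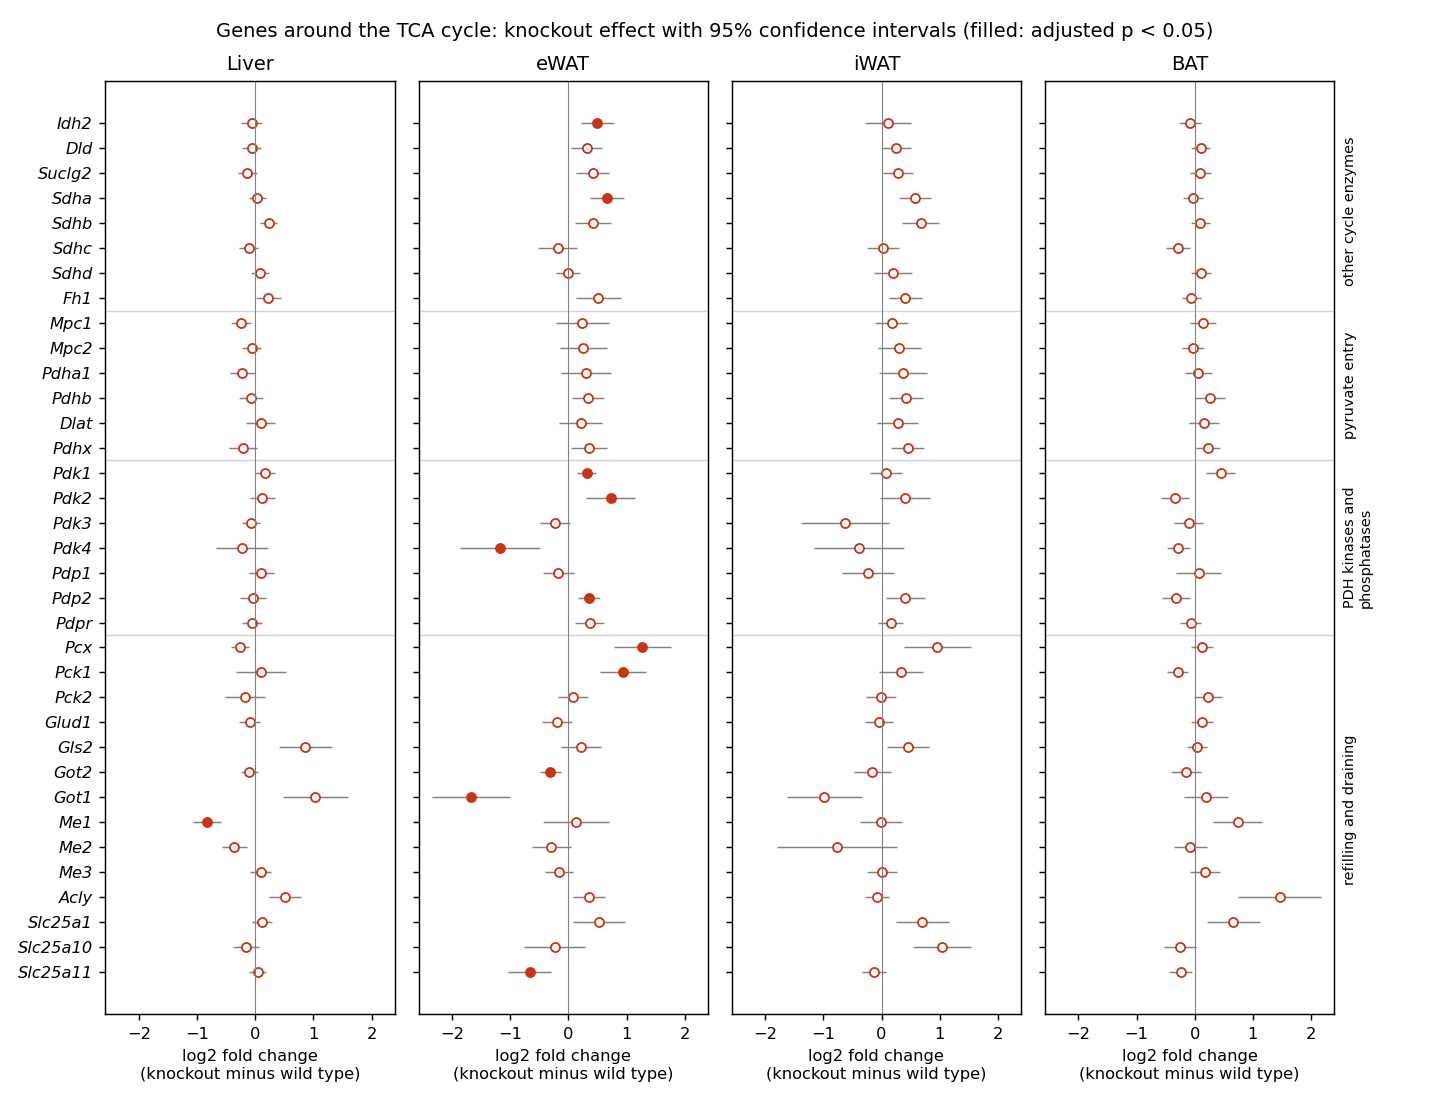
Log2 fold change (horizontal axis, knockout minus wild type) with the 95% confidence interval for 35 genes around the TCA cycle (vertical axis, grouped by role) in the 4 tissues, filled where the limma adjusted p was under 0.05. Filled points are in eWAT, where *Pcx* rose by 1.27 and *Got1* fell by 1.68, and in liver for *Me1* alone.

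Of the 5 cytosolic counterparts and paralogs, 2 rose past the threshold in eWAT, against 4.57% of all genes, and none passed elsewhere. They were *Aco1* (0.68, limma adjusted p = 0.0233) and *Mdh1* (0.40, adjusted p = 0.0403), the cytosolic aconitase and malate dehydrogenase. The *Aco1* call was lost without wild-type mouse 2, 3 or 4 or knockout mouse 1 (adjusted p up to 0.0729) and the *Mdh1* call without any 1 wild-type mouse or knockout mouse 1 or 4 (up to 0.110). Of 9 regulators of mitochondrial gene expression, among them *Esrra*, *Gabpa*, *Nrf1* and *Tfam*, 0 passed in any tissue. At a limma unadjusted p under 0.05 there were 1 of 9 in liver (13.3% of all genes) and 1 in eWAT (29.8%). There were 2 in iWAT (15.4%) and 1 in BAT (12.7%). *Ppargc1a*, a coactivator of mitochondrial genes, had log2 fold changes of -1.14 in BAT, 0.69 in eWAT and 0.61 in iWAT. Its effect differed between eWAT and BAT by 1.83 (limma adjusted p = 0.0213). Between iWAT and BAT the difference of 1.75 did not pass (adjusted p = 0.21). For eWAT minus BAT 2 of the 9 regulators passed, against 6.93% of all genes, the other being *Ppargc1b* (0.72, adjusted p = 0.0262). Of 10 import and outer membrane genes, 1 rose and 3 fell past the threshold in eWAT, against 4.57% and 10.7% of all genes. The chaperonin *Hspd1* rose by 0.40 and *Vdac2*, *Tomm22* and *Tomm40* fell (by 0.47, 0.32 and 0.29), and none passed elsewhere. Of these calls that of *Vdac2* (adjusted p = 0.0123) held with each mouse left out, that of *Tomm40* was lost without any 1 mouse (up to 0.137), and those of *Hspd1* (up to 0.0725) and *Tomm22* (up to 0.127) were lost without any 1 mouse except knockout mouse 2. The median over the import and outer membrane list was -0.20 in that depot, against 0.20 over the 9 TCA cycle genes.

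Outside the pathway lists, the genes whose centred values followed the mean of the 9 most closely over the 32 arrays were *Acadvl* (r = 0.88), *Atp5b* (0.88), *Bscl2* (0.86), *Cox8a* (0.86), *Ndufs7* (0.85), *Cyc1* (0.84), *Uqcrc1* (0.84) and *Acadl* (0.84). *Acadvl* and *Acadl* encode acyl-CoA dehydrogenases of fatty acid oxidation, *Atp5b*, *Cox8a*, *Ndufs7*, *Cyc1* and *Uqcrc1* subunits of ATP synthase and of the respiratory chain, and *Bscl2* the lipid droplet protein seipin. Within the pathway lists the values ran from -0.51 for *Got2* to 0.82 for *Pdha1*. The further enzyme genes of the cycle ran from 0.61 for *Idh2* to 0.82 for *Sdhc*. These correlations rest on arrays that share mice and processing, weigh the white depots most and were given no test.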

How the data were processed

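Total RNA (100 ng per array) of 4 tissues was hybridised to Affymetrix Mouse Gene 2.1 ST arrays. For each tissue the authors deposited a table of log2 expression values with 1 value per gene symbol. In each, 840 probe set numbers were not whole, which was read as an average of several probe sets. Any average with a whole number is not in that count. The normalization and the software behind these values are not given in the sources used here. Array medians were 3.00 to 3.06 in liver, 3.13 to 3.17 in eWAT, 3.65 to 3.73 in iWAT and 2.82 to 2.86 in BAT, so tests stayed within a tissue. After 1 or 2 entries per table with no usable gene name were left out, 24646 genes remained. The files give no detection or depth, and the number of arrays limits the precision.

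Genotype and tissue came from the sample labels. KO and WT were compared per tissue with limma 3.58.1 in R 4.3.3 (lmFit and eBayes, two-sided, Benjamini-Hochberg over all genes, threshold 0.05), with no covariate. The 4 against 4 exact permutation test cannot go below p = 0.0286. Differences of the effect between tissues were fitted in limma on the difference of each gene between 2 tissues of a mouse number, which assumes that the numbers in the labels mark the same mouse in every tissue. Where the labels do not say that mice came from separate litters, p-values measure the spread between these mice. The members and lists were chosen with earlier results of these data known. Named genes were the 9 members, *Gpr146*, the listed pathway genes past the threshold, the other listed enzymes of the cycle and the 8 genes most correlated with the members. Another 2 pathway genes are not reported here and are left out of the list counts. Of the listed genes 3 carried older symbols in the tables (*Mpc1*, *Mpc2* and the macrophage marker *Adgre1*). Alternatives were quantile normalization, equal array medians, a filter on dim genes, a trended robust prior, array weights, the methods' t-test, a replicate block, a muscle covariate and each mouse left out. Lymphocyte covariates and the removal of arrays rich in lymphocyte or muscle genes were added after seeing the data. Fits were tested on simulated data. Promoters came from RefSeq (GRCm38.p6), where 8 of the 9 genes matched. Figures were drawn with matplotlib 3.10.9.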

Additional observations from a re-analysis of the deposited data

Results flagged for a closer look

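The mean of the 9 TCA cycle genes was 7.72 in eWAT wild-type mouse 4, below the 7.92 to 7.94 of the other 3 wild-type mice, a gap of 0.906 of the group's range (past the critical value of Dixon's test for 4 values). It was the 1 group with an outlying array among the 80 tested, where chance alone gives about 1 in 20. The knockout effect on *Idh3g* differed between iWAT and BAT by 0.46, with the 4 knockout values all over the wild-type range in iWAT and all under it in BAT, and the test of this difference across all genes did not pass the threshold (limma adjusted p = 0.309).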

How the results depend on the processing

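No member was past the threshold in liver under any alternative, and no member fell in eWAT or iWAT or rose in BAT. In eWAT the number of members that rose went from 0 to 2 with quantile normalization (*Sucla2* 0.41, adjusted p = 0.0149, and *Suclg1* 0.47, adjusted p = 0.0394) and with array weights (the same 2 genes), to 1 with the lymphocyte covariate (*Suclg1*) and to 1 by the methods' t-test without adjustment (*Sucla2*), and it was 0 to 1 with each mouse left out (1 without knockout mouse 3, *Suclg1*). By the same unadjusted t-test 4 members were past 0.05 in iWAT (*Cs*, *Idh3g*, *Ogdh* and *Mdh2*) and 3 in BAT (*Idh3b*, *Idh3g* and *Mdh2*, lower). Quantile normalization raised the count for eWAT minus BAT from 0 to 2 (*Cs* 0.57 and *Mdh2* 0.49), and with each mouse left out it was 0 to 1 (*Cs*, without knockout mouse 3). For this pair of tissues the share of all genes under these settings was not computed. Quantile normalization also moved the eWAT median of the members from 0.20 to 0.33, the iWAT median from 0.32 to 0.47 and the higher share of all eWAT calls from 29.96% to 48.9%, and no scaling moved the median of all genes by over 0.1. The iWAT median was 0.21 to 0.40 and the eWAT median 0.11 to 0.30 with each mouse left out, and the liver median -0.024 to 0.020. The cause of these changes was not tested.

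Counts over all genes moved more: from 164 in liver to 252 without dim genes, 2 by the adjusted t-test, 2901 by the unadjusted one and 41 to 300 with each mouse left out. In eWAT 3758 became 517 with the muscle covariate, 38 by the adjusted t-test, 6798 by the unadjusted one and 1448 to 5430 with each mouse left out, so the calls on single pathway genes were lost by the adjusted t-test, that of *Sdha* at adjusted p = 0.0673 and 0.0609 with the muscle covariate and that of *Idh2* at 0.0872 and 0.0942. The muscle marker means behind this covariate were low in eWAT, 2.88 to 3.22 in the wild type and 3.05 to 3.25 in the knockout. The eWAT array medians were 3.13 to 3.17. In iWAT 0 became 93 with the lymphocyte covariate, 916 without the 4 lymphocyte-rich arrays, 1 by the adjusted t-test, 3167 by the unadjusted one and up to 227 with each mouse left out. In BAT 7 became 0 with quantile normalization, equal medians, the muscle covariate, the adjusted t-test or the muscle-rich arrays left out, 2803 by the unadjusted t-test and 0 to 80 with each mouse left out.

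The labels link same-numbered wild-type and knockout mice by the number alone, and which mice shared a litter is not given. The correlations of their deviations were -0.38, 0.67, 0.46 and 0.16 in iWAT, and no tissue had every pair above 0.1. In iWAT the same-numbered knockout mouse was the best match for wild-type mice 2 and 3 and not for mice 1 and 4. The iWAT lymphocyte marker means (wild type, knockout) were 7.75 and 7.48 for mice 2 and 3.55 and 3.40 for mice 3. They were 7.62 and 3.48 for mice 1 and 3.36 and 5.39 for mice 4. The part of lymphocyte content in these correlations was not tested. With the number as a replicate block, 0 members were past the threshold in every tissue and pair of tissues, the eWAT median stayed at 0.20, and the counts over all genes went from 0 to 1 in iWAT and from 7 to 0 in BAT. The block ended the eWAT call of *Mdh1* (adjusted p = 0.0658).

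Signs turned for values that had not passed the threshold. With quantile normalization these were *Cs* 0.026 and *Idh3g* 0.0016 in liver, *Idh3a* 0.13 and *Sdhd* 0.17 in eWAT, *Sdha* 0.029 in BAT, and the differences *Idh3a* 0.095 (eWAT minus BAT), *Dlst* 0.16 (eWAT minus liver) and *Idh3b* 0.017 (BAT minus liver). With equal medians they were *Idh3a* -0.0045 in BAT, *Suclg1* 0.010 (eWAT minus iWAT) and *Dlst* 0.018 (eWAT minus liver). In eWAT *Idh3a* became 0.0019 with array weights, 0.075 with the muscle and 0.020 with the lymphocyte covariate, and *Sdhd* 0.038 with array weights and 0.037 with the lymphocyte covariate. Without the lymphocyte-rich arrays iWAT *Idh2* was -0.17 and *Sdhc* -0.058, and without the muscle-rich arrays BAT *Sdha* was 0.0088. With each mouse left out in turn, liver ran from -0.069 to 0.012 in *Cs*, -0.024 to 0.055 in *Dlst*, -0.050 to 0.022 in *Idh3g* and -0.032 to 0.084 in *Suclg1*. In eWAT the ranges were -0.082 to 0.18 in *Dlst*, -0.15 to 0.047 in *Idh3a*, -0.012 to 0.21 in *Idh3b* and -0.077 to 0.054 in *Sdhd*, in iWAT -0.015 to 0.21 in *Idh2* and -0.060 to 0.10 in *Sdhc*, and in BAT -0.028 to 0.052 in *Idh3a* and -0.071 to 0.0023 in *Sdha*. For differences they were -0.0049 to 0.15 in *Suclg1* (BAT minus liver), -0.18 to 0.013 in *Idh3a* (eWAT minus BAT), -0.14 to 0.13 in *Dlst* (eWAT minus liver), -0.074 to 0.16 in *Idh3a* (iWAT minus liver), and for eWAT minus iWAT -0.33 to 0.043 in *Cs*, -0.21 to 0.090 in *Dlst*, -0.13 to 0.039 in *Idh3b*, -0.19 to 0.051 in *Idh3g*, -0.14 to 0.098 in *Sucla2* and -0.18 to 0.25 in *Suclg1*.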
